A study of Mus musculus with 24 samples.

Results

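The comparison sets bone marrow-derived macrophages (BMDMs) that received siRNA against Ctbp2 beside BMDMs that received siRNA against Ctbp1, both without an inflammatory stimulus. Its 6 libraries, 3 per siRNA, are the vehicle-treated ones among 24 libraries of the series, taken by their labels. BMDMs are primary macrophages, here grown for 6 days from the marrow of male C57BL6/N mice aged 6 to 12 weeks in medium with L929 cell supernatant. An siRNA is a short RNA duplex that lowers the transcript it matches. The groups are Ctbp2 siRNA with vehicle (PBS, 4 h), Ctbp1 siRNA with vehicle, and, set beside them as levels, control siRNA with vehicle (3 libraries). The same siRNAs were also given with 100 ng/ml lipopolysaccharide (LPS), a component of the outer membrane of Gram-negative bacteria, for 4 h, and those 6 libraries serve as a second look at the contrast. The rest of the series, control siRNA with LPS and a macrophage line, enters no main result. Replicates carry the numbers 1, 3 and 4 in the sample titles. The labels call them biological without saying whether they are separate mice or cultures, so p-values here measure the spread between these libraries. The labels name a pair of sequencers without tying a library to either, so a difference between sequencers could not be examined. The labels do not give the siRNA sequences, and a response to a duplex itself cannot be told apart from the loss of its target. In bulk RNA, fewer cells of a kind and less RNA per cell cannot be told apart either.

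CtBP1 and CtBP2 are closely related co-repressors. They do not bind DNA themselves but are recruited by transcription factors, and they bring histone-modifying enzymes to the genes those factors occupy. In macrophages they have been studied as brakes on inflammatory genes. Interferon-stimulated genes are antiviral genes switched on by interferon signalling, and macrophages hold many of them at a low tonic level even at rest.

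The values are TPM, in which each transcript's reads are divided by its length and scaled to a common library total. TPM keeps no sequencing depth, so the counting error of a value is unknown. Between 12102 and 12159 genes reached 1 TPM in each of the 6 libraries, and mitochondrially encoded genes held 4.41% to 4.84% of the TPM. Libraries of the same siRNA correlated at 0.983 to 0.991 (Pearson's r over genes tested, log2 scale) and libraries of different siRNAs at 0.982 to 0.988. All 8 macrophage markers were above 1 TPM in every library. They summed to 13432 to 14582 TPM in Ctbp2 siRNA libraries and 12458 to 13044 TPM in Ctbp1 siRNA libraries. These sums did not overlap. Most of the gap came from Lyz2, with means of 9044 TPM with Ctbp2 siRNA, 7901 TPM with Ctbp1 siRNA and 9222 TPM with control siRNA. Fcgr1, the high-affinity receptor for IgG, averaged 122 ± 17.9 TPM with Ctbp2 siRNA, 84.3 ± 8.62 TPM with Ctbp1 siRNA and 91.0 ± 8.87 TPM with control siRNA (SD, n = 3 each). No macrophage marker was called, and the part of these levels in the results was not tested. Of the neutrophil markers, Elane and Ly6g were at 0 in all 6 libraries, and the 8 markers together held 62.0 to 109 TPM with Ctbp2 siRNA and 69.9 to 109.7 TPM with Ctbp1 siRNA. Stromal, mast cell and red cell markers each stayed at or below 1.00 TPM, although only 1 of 7 red cell markers had values. The 7 lymphocyte markers with values peaked at 4.53 TPM (Cd4). Of the 6 dendritic markers with values Itgax alone passed 1 TPM, and Flt3 was at 0. The dendritic sums, nearly all Itgax, were 134 to 139 TPM with Ctbp2 siRNA and 113 to 125 TPM with Ctbp1 siRNA, and their part in the results was not tested either.

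Each siRNA had lowered its own target. Ctbp2 was at 20.4, 16.9 and 17.2 TPM in the Ctbp2 siRNA libraries and at 57.7, 56.0 and 50.3 TPM in the Ctbp1 siRNA libraries, with 52.0, 51.6 and 54.2 TPM in control siRNA libraries. The first group lay wholly below the others. Its level was 33.2% of that with Ctbp1 siRNA (log2 fold change −1.54, SE 0.0845, limma adjusted p = 0.000176). Ctbp1 was at 143, 148 and 128 TPM with Ctbp2 siRNA, at 59.4, 55.5 and 57.1 TPM with Ctbp1 siRNA and at 143, 141 and 130.0 TPM with control siRNA, and here the Ctbp1 siRNA libraries lay alone at the bottom (1.27, SE 0.0578, adjusted p = 5.94e-05). The paralogs are not equally abundant in resting BMDMs, and because TPM is corrected for length their levels can be added. Together they held 158 ± 10.8 TPM with Ctbp2 siRNA, 112 ± 4.90 TPM with Ctbp1 siRNA and 191 ± 5.81 TPM with control siRNA (SD, n = 3 each). Ctbp2 made up 11.5% of that sum with Ctbp2 siRNA, 48.8% with Ctbp1 siRNA and 27.6% with control siRNA. The groups therefore differed in total CtBP transcript as well as in which paralog remained, with more left in the Ctbp2 siRNA cells. No protein was measured.

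Beyond the targets, few genes were called between the siRNAs at rest, and most called changes were small. With 3 libraries per siRNA, the number of calls is not the number of genes that differ. Of 8102 genes tested, 36 were called at an adjusted p under 0.05 (0.444%; limma on log2(TPM + 1), Benjamini-Hochberg), 21 higher (0.259%) and 15 lower (0.185%) with Ctbp2 siRNA than with Ctbp1 siRNA. Higher genes made up 58.3% of the calls, and 72.9% when libraries were rescaled by median-of-ratios factors (43 higher, 16 lower). All 36 kept the groups apart with no overlap, as did 7.25% of genes tested in the higher direction and 15.8% in the lower one. Only 4 of the 36 reached 2-fold, namely the targets, Ly6a and a short pseudogene, and 24 stayed under 1.5-fold. At an unadjusted p under 0.05 there were 1302 genes (16.1%), 455 higher and 847 lower. The median over all genes tested was −0.03 on the log2 scale. Of the 36 calls, 15 held in every fit that left out 1 of the 6 libraries and still tested the gene: Ctbp1, Ctbp2, Ly6e, Pdia3, Slc25a5, Pld4, Cd302, Fxyd2, Ptma, Arl8a, Ywhag, Lratd2, Gm14287 and the unnamed clones 1110008P14Rik and 2810025M15Rik. Without Ctbp2 siRNA replicate 1 there were 17 calls (9 higher, 8 lower) and without Ctbp1 siRNA replicate 4 there were 20 (14 higher, 6 lower). The lower calls numbered 9 without Ctbp2 siRNA replicate 4 and 7 without Ctbp1 siRNA replicate 1.

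**Figure D1:**
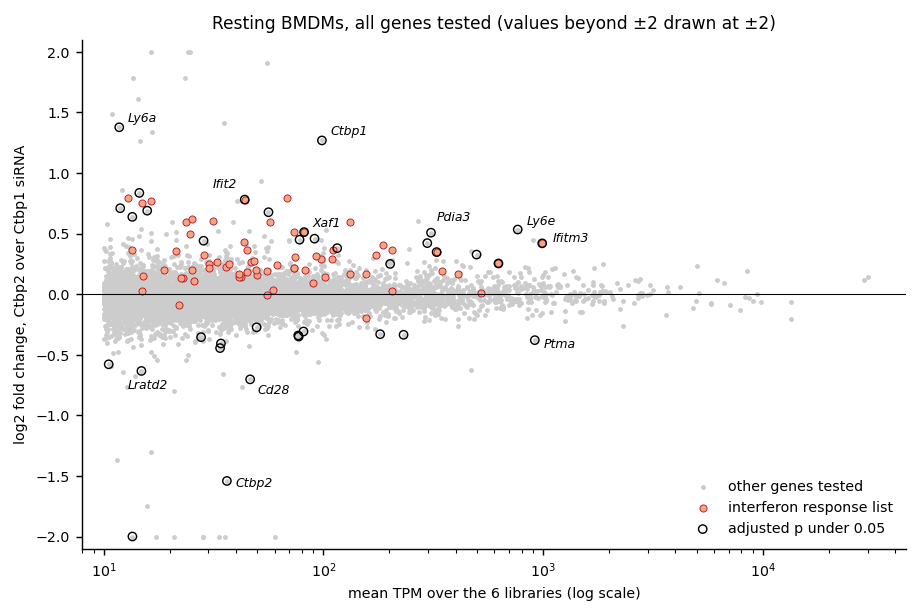
Log2 fold change of Ctbp2 over Ctbp1 siRNA in vehicle BMDMs (y axis, drawn to ±2) against mean TPM over the 6 libraries (x axis, log scale) for the 8102 genes tested. Black rings mark the 36 called genes and coloured points the 66 tested members of the interferon response list, whose median is 0.25.

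The genes that were higher with Ctbp2 siRNA than with Ctbp1 siRNA included a group of antiviral and interferon-stimulated genes. Ly6a, with the largest fold change among them, encodes the GPI-anchored surface protein Sca-1 and is inducible by interferon in several cell types. It was at 21.5, 14.7 and 16.3 TPM in Ctbp2 siRNA libraries, 7.66, 5.33 and 5.32 TPM in Ctbp1 siRNA libraries and 7.01, 5.19 and 5.91 TPM in control siRNA libraries. Every Ctbp2 siRNA library was above every other (2.86-fold against Ctbp1 siRNA, log2 1.38, SE 0.166, adjusted p = 0.0128). All its Ctbp1 and control siRNA values lay under the 10 TPM that the mean of a tested gene had to reach. It was therefore tested only through its Ctbp2 siRNA values. Without Ctbp1 siRNA replicate 4 its call was lost (log2 1.30, adjusted p = 0.0609), and without Ctbp2 siRNA replicate 1 it was too scarce to test. The much more abundant Ly6e, a GPI-anchored relative that interferons also induce, had 873, 931 and 917 TPM with Ctbp2 siRNA, 669, 591 and 621 TPM with Ctbp1 siRNA and 535, 548 and 603 TPM with control siRNA. Again the Ctbp2 siRNA libraries stood clear (0.53, SE 0.0487, adjusted p = 0.00431). Both belong to a family of similar genes, so reads may be shared among members.

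The interferon-induced transmembrane proteins, which block fusion of viral envelopes with endosomal membranes, were called higher in 3 members. Ifitm3 held 1125, 1193 and 1085 TPM with Ctbp2 siRNA, 907, 839.8 and 798 TPM with Ctbp1 siRNA and 879.8, 916 and 896 TPM with control siRNA (0.42, SE 0.0535, adjusted p = 0.0144). Ifitm2 held 686, 668 and 691 TPM with Ctbp2 siRNA, 568, 555 and 593 TPM with Ctbp1 siRNA and 579, 596 and 591 TPM with control siRNA (0.25, SE 0.0349, adjusted p = 0.0217). For both, the Ctbp2 siRNA libraries lay above all others, while Ctbp1 and control siRNA libraries overlapped. Ifitm6 was scarcer, at 19.1, 20.4 and 17.3 TPM with Ctbp2 siRNA and 11.8, 9.28 and 9.46 TPM with Ctbp1 siRNA (0.84, SE 0.104, adjusted p = 0.014). It differs from its relatives in that control siRNA libraries, at 16.4, 15.8 and 12.1 TPM, lay between the siRNAs. Its call was lost without Ctbp2 siRNA replicate 1 or 3 or Ctbp1 siRNA replicate 4 (adjusted p up to 0.082). The members of the family are similar in sequence, so the split of reads between them is uncertain.

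The other antiviral genes called were Ifit2, Xaf1 and Bst2. Ifit2, a cytosolic protein that restricts viral translation, was at 52.4, 52.1 and 62.6 TPM with Ctbp2 siRNA, 32.7, 27.9 and 35.6 TPM with Ctbp1 siRNA and 27.3, 27.1 and 36.1 TPM with control siRNA (0.78, SE 0.101, adjusted p = 0.0152). Xaf1, a pro-apoptotic binder of the caspase inhibitor XIAP, was at 96.2, 88.7 and 104 TPM with Ctbp2 siRNA, 70.5, 64.4 and 66.5 TPM with Ctbp1 siRNA and 72.2, 63.9 and 74.2 TPM with control siRNA (0.51, SE 0.0634, adjusted p = 0.0139). Bst2, which encodes tetherin and holds budding virus at the cell surface, was at 359.9, 362 and 379 TPM with Ctbp2 siRNA, 297, 269 and 300.4 TPM with Ctbp1 siRNA and 304, 288 and 323 TPM with control siRNA (0.35, SE 0.0481, adjusted p = 0.022). In all 3 genes the Ctbp2 siRNA libraries were the highest and the Ctbp1 and control siRNA libraries overlapped one another.

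**Figure D2:**
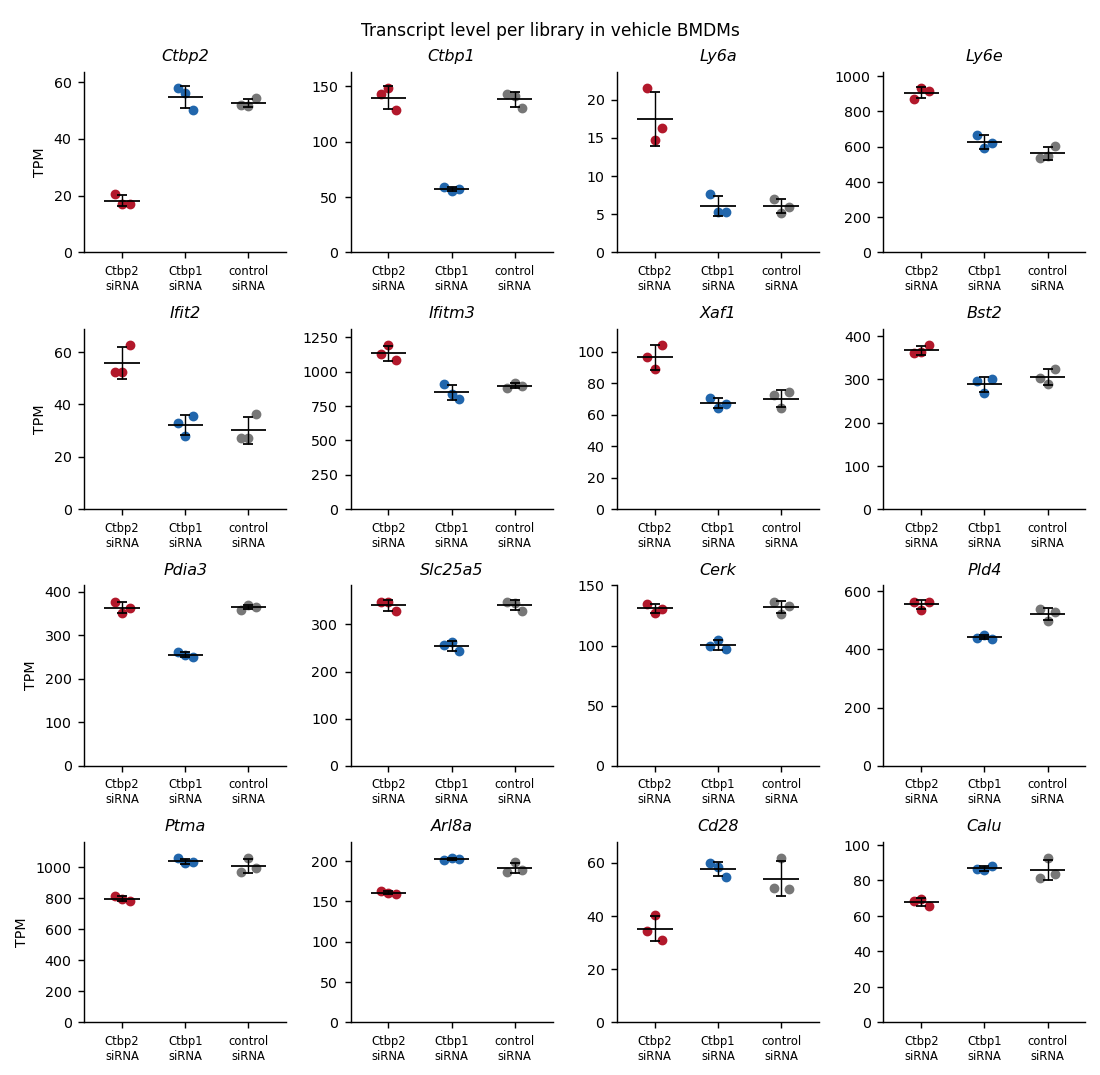
TPM (y axis, from 0) of 16 genes in vehicle BMDMs with Ctbp2, Ctbp1 or control siRNA. Points are libraries in the order of replicates 1, 3 and 4, bars the mean and whiskers the SD (n = 3). For the interferon-related genes, Ly6a to Bst2, Ctbp2 siRNA stands alone, and for Pdia3, Slc25a5, Cerk and Pld4 it is Ctbp1 siRNA that stands below the other groups.

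Across the interferon response list of 77 genes, 76 were in the table and 66 were abundant enough to test. Of these, 5 were called higher (Xaf1, Ifitm3, Ifit2, Ifitm2 and Bst2) and none lower, where 0.259% and 0.185% of all genes tested were called. The median of the 66 was 0.25, against −0.03 over all genes tested, and 63 of 66 estimates were above 0. The groups did not overlap in 45 members in the higher direction and in 2 in the lower, against 7.25% and 15.8% of all genes tested. At an unadjusted p under 0.05 there were 50 higher and 1 lower, against 5.62% and 10.5%. None of the 5 calls held in all 6 fits that left out a library. No member was called without Ctbp2 siRNA replicate 1. There were 2 called without Ctbp2 siRNA replicate 3, Ctbp1 siRNA replicate 1 or Ctbp1 siRNA replicate 4, and 3 without Ctbp2 siRNA replicate 4. Without Ctbp1 siRNA replicate 3 there were 4, Isg15 and Oas3 among them. The median of the list was between 0.20 and 0.30 in those fits. It was 0.28 after median-of-ratios scaling, with 9 members called.

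Several well-known members were not called, and of these Oas3, Isg15 and Ifit3 lay just short of the threshold. Oas3, which makes the messenger that activates RNase L, was at 85.1, 82.6 and 91.3 TPM with Ctbp2 siRNA, 65.1, 52.5 and 63.8 TPM with Ctbp1 siRNA and 59.9, 55.3 and 68.0 TPM with control siRNA (0.51, adjusted p = 0.0501). Isg15, a ubiquitin-like modifier, was at 71.6, 64.0 and 70.3 TPM with Ctbp2 siRNA, 49.1, 37.5 and 49.2 TPM with Ctbp1 siRNA and 42.2, 38.4 and 50.9 TPM with control siRNA (0.60, adjusted p = 0.0511). Ifit3, a partner of the IFIT proteins, was at 78.9, 82.3 and 101 TPM with Ctbp2 siRNA, 52.6, 40.8 and 56.9 TPM with Ctbp1 siRNA and 39.4, 41.1 and 59.3 TPM with control siRNA (0.79, adjusted p = 0.0571). In each the Ctbp2 siRNA libraries lay above the other 6. Irf7, which amplifies interferon production, averaged 159 ± 18.5 TPM with Ctbp2 siRNA and 105 ± 17.8 TPM with Ctbp1 siRNA (0.60, adjusted p = 0.125). The Irf7 groups did not overlap. Mx1, a GTPase that blocks influenza viruses, averaged 19.2 ± 5.15 TPM with Ctbp2 siRNA and 10.8 ± 1.91 TPM with Ctbp1 siRNA (0.75, adjusted p = 0.131). The list was not uniform. Ifi27l2a, among its 3 most abundant members, averaged 524 ± 9.17 TPM with Ctbp2 siRNA and 521 ± 35.4 TPM with Ctbp1 siRNA (0.01, 95% interval −0.10 to 0.12), and Ifi27 averaged 146 ± 4.39 TPM with Ctbp2 siRNA and 168 ± 11.2 TPM with Ctbp1 siRNA (−0.20, adjusted p = 0.131), without overlap and in the opposite direction. The mitochondrial exoribonuclease Pnpt1 was the other member that lay lower without overlap (−0.09, adjusted p = 0.453).

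**Figure D3:**
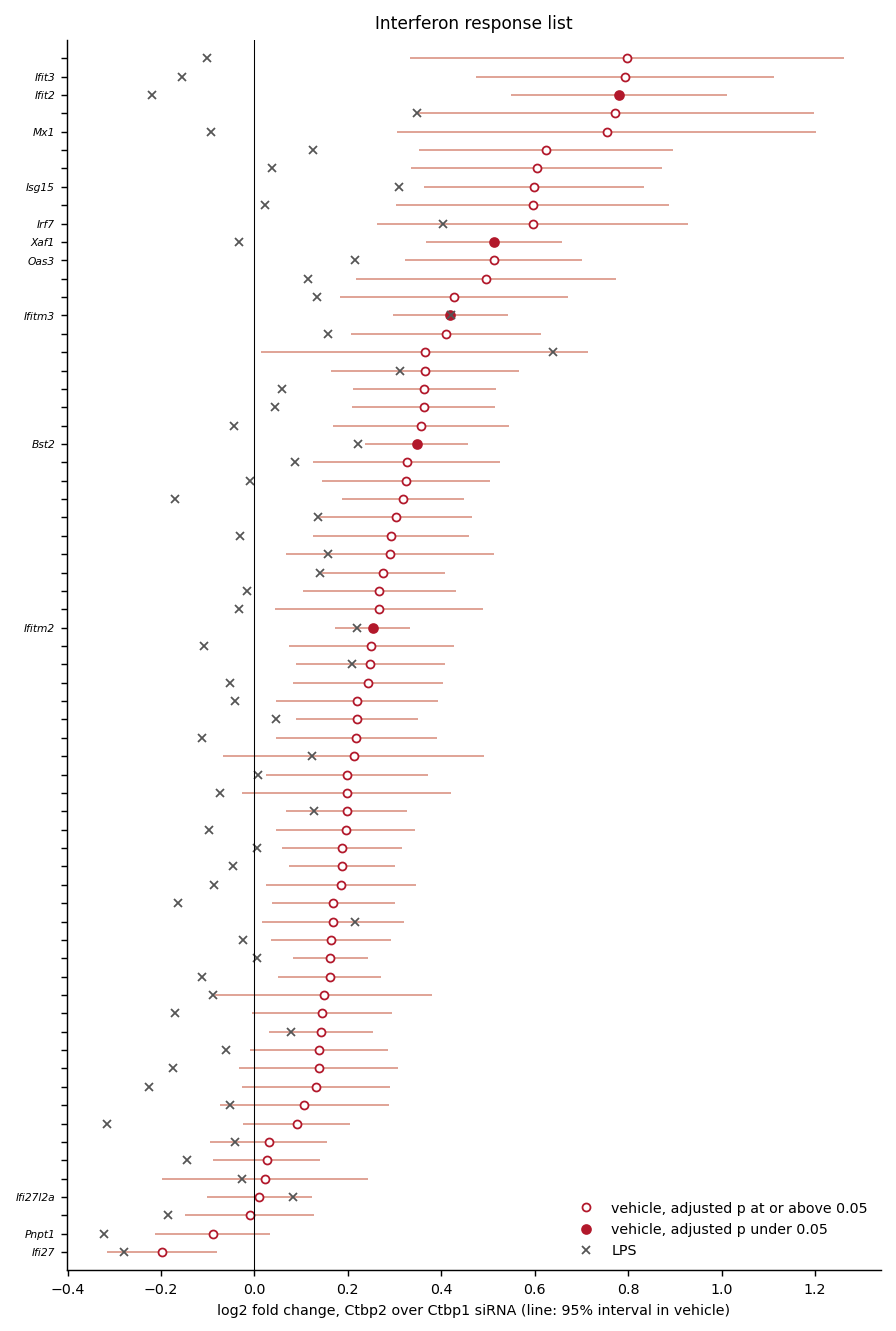
Log2 fold change of Ctbp2 over Ctbp1 siRNA (x axis) for the 66 tested members of the interferon response list, ordered by the value in vehicle. Circles are vehicle values with their 95% interval, filled for the 5 called genes, and crosses are the same contrast in LPS, with names beside the genes described in the text. In vehicle 63 of 66 circles lie right of 0, and in LPS the crosses scatter around 0, with a median of −0.01 over 71 members tested there.

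The type I interferon genes in the table were at or near 0. Of 25 listed interferons and receptors only 10 were in the table, and no Ifna gene was among them. Ifnb1, the interferon that macrophages make first on stimulation, was listed at 0 in all 6 libraries and in the 3 control siRNA vehicle libraries, and so was Ifnk in the 6 libraries. Ifnz was listed at 0.0547 TPM in 1 Ctbp1 siRNA library and at 0 in the other 5. Of the list of interferons and their receptors, 6 members were tested and none was called (median −0.03). Among the sensors of foreign RNA and DNA, 25 were tested and none was called (median 0.06), where 0.444% of all genes tested were called. Of these sensors 6 lay higher and 2 lower without overlap, against 7.25% and 15.8% of all genes tested.

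The promoters of interferon-stimulated genes often carry a tandem GAAA element, the interferon-stimulated response element. The core GAAANNGAAA was searched on both strands between 250 bases before and 50 after the start of each gene in RefSeq promoters (GRCm38.p6; the expression values use mm39). It was present in 28 of the 52 tested interferon response genes with a promoter (53.8%), in 4.20% of genes tested and in 3.99% of all 27025 genes with a promoter. Among called genes it was in 3 of 15 higher ones with a promoter (20.0%: Bst2, Ifitm2 and Ifitm3) and in 1 of 10 lower ones (10.0%), which was Ctbp2 itself. Ifit2 and Xaf1 had no match in this window. The 160 bases before the start are shown for 2 called genes and 2 that lay just short of the threshold, to show how the element sits in each; capitals mark every match, written as TTTCNNTTTC where the element runs on the other strand, and overlapping matches run together.
Bst2 (chr8:71537473-71537632, minus strand): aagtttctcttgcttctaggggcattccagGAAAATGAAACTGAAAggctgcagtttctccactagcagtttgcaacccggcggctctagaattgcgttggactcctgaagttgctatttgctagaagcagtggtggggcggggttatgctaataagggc
Ifitm2 (chr7:140955962-140956121, minus strand): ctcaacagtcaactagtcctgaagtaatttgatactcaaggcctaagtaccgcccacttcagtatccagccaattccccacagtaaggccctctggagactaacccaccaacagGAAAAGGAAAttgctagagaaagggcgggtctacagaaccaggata
Isg15 (chr4:156200819-156200978, minus strand): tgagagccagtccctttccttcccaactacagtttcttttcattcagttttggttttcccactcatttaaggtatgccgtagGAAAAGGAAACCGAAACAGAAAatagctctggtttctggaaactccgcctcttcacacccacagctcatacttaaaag
Ifit3 (chr19:34583369-34583528, plus strand): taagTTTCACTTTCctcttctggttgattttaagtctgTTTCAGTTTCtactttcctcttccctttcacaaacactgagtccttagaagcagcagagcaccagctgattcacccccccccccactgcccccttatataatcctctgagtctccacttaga
Isg15 held 3 overlapping matches, Bst2 2 overlapping ones, Ifit3 2 separate ones and Ifitm2 1. The match nearest to the gene began 46 bases before the start in Ifitm2, 66 in Isg15, 122 in Ifit3 and 124 in Bst2. A match is a description of the letters and not evidence of binding in these cells.

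Antigen presentation by MHC class I is also raised by interferons. Of 21 tested genes 2 were called higher and none lower, where 0.259% and 0.185% of all genes tested were called. The median of the 21 was 0.12 against −0.03 over all genes tested, and 10 lay higher and none lower without overlap, against 7.25% and 15.8% of all genes tested. The called genes were H2-T24, a non-classical class I gene, and Pdia3, a disulfide isomerase of the peptide-loading complex. For Pdia3 the Ctbp1 siRNA libraries were the low ones, and the control siRNA level lay at that of Ctbp2 siRNA, as described below. H2-T24 was at 32.5, 31.6 and 34.8 TPM with Ctbp2 siRNA, 24.6, 22.1 and 25.4 TPM with Ctbp1 siRNA and 22.1, 22.4 and 27.2 TPM with control siRNA (0.44, SE 0.0684, adjusted p = 0.0419). Its call was lost in each of the 6 fits that left out a library, with adjusted p up to 0.141, and class I genes share sequence. The abundant members B2m, H2-D1 and H2-K1 were not called, at 0.12, 0.12 and 0.10 on the log2 scale (adjusted p = 0.246, 0.194 and 0.372). B2m, the light chain of class I, averaged 6455 ± 195 TPM with Ctbp2 siRNA and 5962 ± 317 TPM with Ctbp1 siRNA (SD, n = 3 each).

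Where the control siRNA level lay differed among the genes that were higher with Ctbp2 siRNA than with Ctbp1 siRNA. The position of the control mean was expressed on a scale from 0 at the Ctbp1 siRNA mean to 1 at the Ctbp2 siRNA mean, on log2(TPM + 1). For 9 of the 21 higher genes the control lay nearer to Ctbp1 siRNA, within 0.25 of it for 8 and beyond it, at −0.30, for Ly6e. These are Ly6a, Ly6e, Ifit2, Xaf1, Ifitm2, Ifitm3, Bst2, H2-T24 and 2810025M15Rik. For the other 12, Ctbp1 itself among them, it lay nearer to Ctbp2 siRNA, within 0.25 of it for 8. For all 15 lower genes, Ctbp2 itself among them, the control lay nearer to Ctbp1 siRNA, within 0.25 of it for 11. Among the 1277 tested genes that lay lower with no overlap, the control was nearer to Ctbp1 siRNA in 789 (61.8%). Among the 587 tested genes that lay higher with no overlap, the control was nearer to Ctbp1 siRNA in 302 (51.4%), and among the 45 such interferon response genes in 41 (91.1%). The control libraries do not enter the main fit of this contrast, but the position shares the values of both siRNA groups with it.

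**Figure D4:**
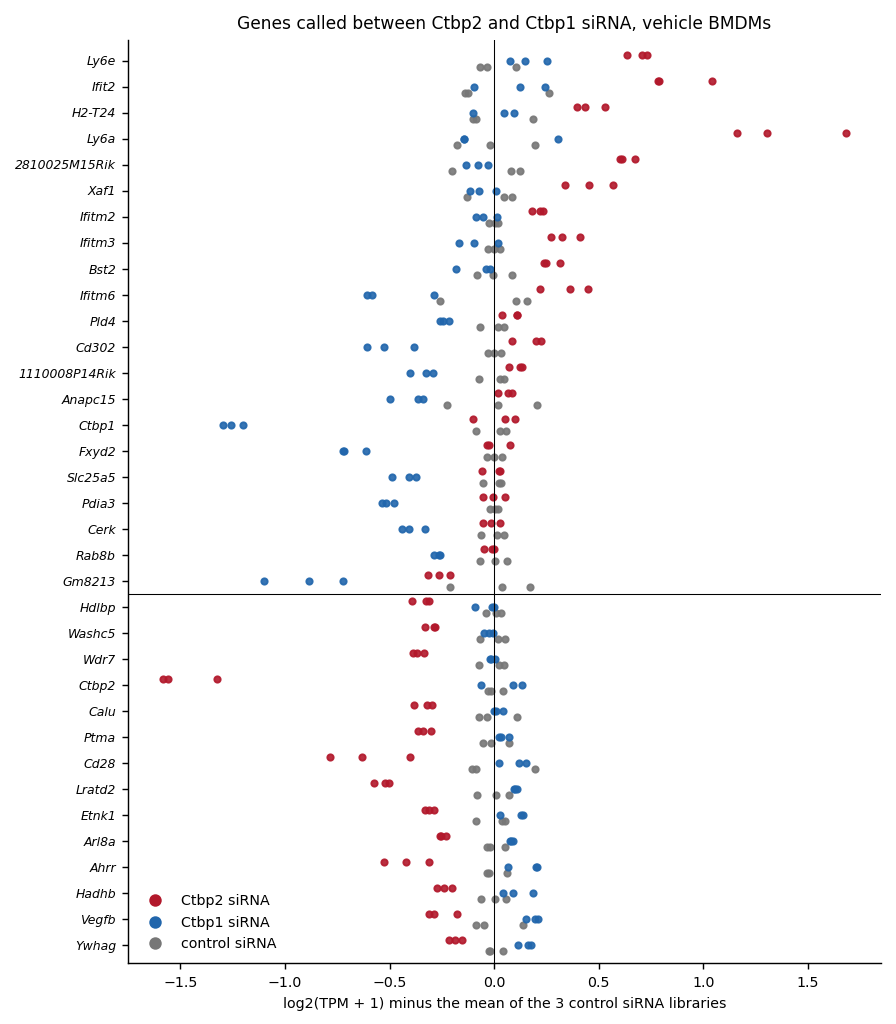
Each called gene in vehicle BMDMs except Gm14287, as log2(TPM + 1) of each library minus the mean of the 3 control siRNA libraries (x axis). The upper block holds the genes higher with Ctbp2 siRNA, ordered by where the control lies, and the lower block those lower. From Ly6e to Bst2 the Ctbp2 siRNA points lie right of 0 and the Ctbp1 siRNA points near it, and from Fxyd2 to Rab8b the Ctbp2 siRNA points lie near 0 and the Ctbp1 siRNA points left of it.

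The authors' deposited table gives log2 fold changes of each siRNA against control siRNA, and both comparisons share the control libraries. Ifit2 stands in the authors' deposited table at 0.93 (adjusted p = 1.45e-07) for Ctbp2 siRNA and at 0.11 (0.883) for Ctbp1 siRNA. Ly6e stands in the authors' deposited table at 0.73 (4.91e-08) for Ctbp2 siRNA and 0.18 (0.584) for Ctbp1 siRNA. Pdia3 is the reverse case in the authors' deposited table, at 0.04 (0.748) for Ctbp2 siRNA and −0.49 (1.88e-28) for Ctbp1 siRNA. Genes not called here vary in the authors' deposited table. For Ctbp2 siRNA Ifit3 stands there at 0.948 (adjusted p = 2.56e-07), B2m at 0.294 (4.5e-07) and Mx1 at 0.422 (0.528). For Ctbp1 siRNA Ifit3 stands there at 0.124 (0.869), B2m at 0.155 (0.066) and Mx1 at −0.431 (0.576).

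Among the genes with the control near the Ctbp2 siRNA level were a chaperone, a mitochondrial carrier and an endosomal nuclease. Pdia3, which also folds glycoproteins in the endoplasmic reticulum, was at 377, 350.4 and 362 TPM with Ctbp2 siRNA, 261, 254 and 251 TPM with Ctbp1 siRNA and 359, 368 and 365 TPM with control siRNA. The Ctbp1 siRNA libraries lay together below both other groups (0.51, SE 0.0373, adjusted p = 0.00135). It was the only one of 22 tested disulfide isomerases and chaperones that was called (median −0.01), where 0.444% of all genes tested were called. Slc25a5, the ADP/ATP carrier of the inner mitochondrial membrane, was at 347, 347 and 328 TPM with Ctbp2 siRNA, 256, 263 and 243 TPM with Ctbp1 siRNA and 348, 346 and 328 TPM with control siRNA (0.42, SE 0.0413, adjusted p = 0.00431). It has processed copies in the genome with which reads may be shared. Of 39 nuclear oxidative phosphorylation genes it was the only one called (median −0.04), against 0.444% of all genes tested. Pld4, an exonuclease that degrades nucleic acids in endosomes and lysosomes, was at 564, 536 and 563 TPM with Ctbp2 siRNA, 440.1, 449.5 and 436 TPM with Ctbp1 siRNA and 540.2, 499 and 529 TPM with control siRNA (0.33, SE 0.033, adjusted p = 0.00455).

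The other genes with the control on that side included surface, membrane and signalling proteins. Cd302, a C-type lectin receptor of phagocytes, averaged 69.4 ± 3.52 TPM with Ctbp2 siRNA, 43.1 ± 3.51 TPM with Ctbp1 siRNA and 61.6 ± 1.29 TPM with control siRNA (0.68, adjusted p = 0.00431). Fxyd2, a regulatory subunit of the sodium pump, averaged 19.7 ± 0.887 TPM with Ctbp2 siRNA, 11.9 ± 0.548 TPM with Ctbp1 siRNA and 19.7 ± 0.515 TPM with control siRNA (0.69, adjusted p = 0.00431). Neither pair of siRNA groups overlapped. Cerk, which phosphorylates ceramide, averaged 131 ± 3.65 TPM with Ctbp2 siRNA, 100.4 ± 3.95 TPM with Ctbp1 siRNA and 132 ± 5.11 TPM with control siRNA (0.38, adjusted p = 0.00719). Anapc15, a subunit of the anaphase-promoting complex, stood at 0.46 (adjusted p = 0.00684) and Rab8b, a GTPase of vesicle transport, at 0.25 (0.0144), in log2 units. The clone 1110008P14Rik stood at 0.45 (0.00431) and the predicted gene Gm8213 at 0.64 (0.0458); the transcript of Gm8213 shares a stretch of 134 identical bases with Rpl27a, a ribosomal protein gene, so its reads are uncertain. Without Ctbp2 siRNA replicate 1 the calls of Anapc15 and Cerk were lost (adjusted p = 0.0524 each), Rab8b was lost in 5 of 6 such fits (up to 0.0849) and Gm8213 in 5 (up to 0.165).

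Genes that fell with Ctbp2 siRNA relative to Ctbp1 siRNA were, apart from Ctbp2, mostly under 1.5-fold. Ptma, which encodes the small acidic nuclear protein prothymosin alpha, was at 816, 796 and 781 TPM with Ctbp2 siRNA, 1057, 1024 and 1032 TPM with Ctbp1 siRNA and 971, 1056 and 996 TPM with control siRNA. The Ctbp2 siRNA libraries lay below all others (−0.38, SE 0.0305, adjusted p = 0.0022), although Ptma has many processed copies that can share its reads. Arl8a, a GTPase that moves lysosomes along microtubules, was at 163, 159.8 and 159 TPM with Ctbp2 siRNA, 201, 203 and 202 TPM with Ctbp1 siRNA and 187, 198 and 188 TPM with control siRNA (−0.33, SE 0.0305, adjusted p = 0.00431). It was the only called gene among 36 lysosome and V-ATPase genes (median −0.02), where 0.444% of all genes tested were called. Ywhag, a 14-3-3 protein, was at 205, 200.4 and 209.7 TPM with Ctbp2 siRNA, 252, 261 and 264 TPM with Ctbp1 siRNA and 229.9, 240.0 and 229 TPM with control siRNA (−0.34, SE 0.0345, adjusted p = 0.00489), with the control close to the middle. The calls of Ptma, Arl8a and Ywhag held whichever of the 6 libraries was left out.

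Cd28, best known as a co-stimulatory receptor of T cells, showed one of the larger drops. It was at 34.4, 40.4 and 30.9 TPM with Ctbp2 siRNA, 59.9, 58.5 and 54.6 TPM with Ctbp1 siRNA and 50.5, 61.7 and 50.0 TPM with control siRNA (−0.70, SE 0.0914, adjusted p = 0.0154). The 7 of 11 lymphocyte markers with values, Cd4 being the one T cell marker among them, summed to 3.43 to 6.11 TPM in Ctbp2 siRNA libraries and 3.40 to 5.22 TPM in Ctbp1 siRNA libraries, and the part of lymphocytes in the Cd28 level was not tested. The call was lost in 4 of 6 fits that left out a library, with adjusted p up to 0.0894. Lratd2 was at 11.5, 11.7 and 11.1 TPM with Ctbp2 siRNA, 18.2, 18.4 and 18.3 TPM with Ctbp1 siRNA, and the control siRNA libraries lay between them, closer to Ctbp1 siRNA (−0.63, SE 0.0609, adjusted p = 0.00431). Ahrr, the repressor of the aryl hydrocarbon receptor, averaged 8.27 ± 0.688 TPM with Ctbp2 siRNA and 12.8 ± 0.756 TPM with Ctbp1 siRNA (−0.58, adjusted p = 0.0365), a call lost in all 6 such fits (up to 0.128). Ahrr reached the mean of 10 TPM needed for a test only through its Ctbp1 siRNA values. Vegfb, a growth factor of the VEGF family, averaged 28.6 ± 1.48 TPM with Ctbp2 siRNA and 39.2 ± 0.86 TPM with Ctbp1 siRNA (−0.44, adjusted p = 0.0135).

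Genes of several cell compartments made up the rest of the lower calls. Calu, a calcium-binding protein of the endoplasmic reticulum, averaged 67.9 ± 2.12 TPM with Ctbp2 siRNA and 86.8 ± 1.26 TPM with Ctbp1 siRNA (−0.35, adjusted p = 0.00873), a call lost without Ctbp2 siRNA replicate 1 (0.0524) or Ctbp1 siRNA replicate 4 (0.0568). Hadhb, a subunit of the mitochondrial trifunctional protein of fatty acid oxidation, averaged 67.7 ± 1.73 TPM with Ctbp2 siRNA and 86.0 ± 4.39 TPM with Ctbp1 siRNA (−0.34, adjusted p = 0.022). Log2 fold changes of the others were −0.41 for the ethanolamine kinase Etnk1 (adjusted p = 0.0144), −0.35 for Wdr7 (0.0209), −0.31 for the RNA-binding protein vigilin, Hdlbp (0.022), and −0.27 for Washc5 of the endosomal WASH complex (0.0378). Vegfb, Hadhb, Etnk1 and Hdlbp were lost in 5 of 6 fits that left out a library and Wdr7 and Washc5 in all 6, with adjusted p up to 0.141 among them. Gm14287 was listed at 0 in all 3 Ctbp2 siRNA libraries, at 26.6, 20.9 and 33.7 TPM in Ctbp1 siRNA libraries and at 12.5, 41.3 and 43.0 TPM in control siRNA libraries. It too was tested only through its Ctbp1 siRNA values. This processed pseudogene has a transcript of 117 bases, of which 108 in a row are identical to the 14-3-3 gene Ywhaz, so its reads cannot be assigned with certainty and no fold is given.

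Apart from Ctbp1 and Ctbp2 themselves, no listed gene of the CtBP machinery was called. Of 25 tested partners and enzymes of the CtBP complex, none was called (median −0.01), where 0.444% of all genes tested were called. Without overlap, 1 lay higher and 6 lower, against 7.25% and 15.8% of all genes tested. Zeb2, a zinc-finger repressor that recruits CtBP, averaged 155 ± 6.19 TPM with Ctbp2 siRNA and 153 ± 3.75 TPM with Ctbp1 siRNA (0.02, 95% interval −0.07 to 0.12). The histone methyltransferase Ehmt2 averaged 115 ± 1.12 TPM with Ctbp2 siRNA and 122 ± 7.04 TPM with Ctbp1 siRNA (−0.08, −0.19 to 0.03). The co-repressor Ncor1 averaged 99.2 ± 3.08 TPM with Ctbp2 siRNA and 103 ± 16.2 TPM with Ctbp1 siRNA (−0.04, −0.26 to 0.18). The intervals of Zeb2 and Ehmt2 stay within 0.25, the smallest change called, and that of Ncor1 reaches past it.

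Inflammatory genes were also uncalled at rest. None of 5 tested cytokines (median −0.04), 9 chemokines (0.21), 20 NF-kB and feedback genes (0.02) or 15 immediate early genes (0.05) passed the threshold. Over all genes tested 0.444% did, so lists this short would hold few calls. At an unadjusted limma p under 0.05, 4 chemokines were higher and 1 lower, and 2 cytokines were higher and 2 lower. Of the immediate early genes 2 were higher and 0 lower, and no NF-kB and feedback gene was either. Over all genes tested these shares were 5.62% and 10.5%. Tnf was at 36.8, 35.6 and 32.4 TPM with Ctbp2 siRNA, 34.2, 37.0 and 36.6 TPM with Ctbp1 siRNA and 37.5, 36.3 and 37.3 TPM with control siRNA (−0.04, 95% interval −0.19 to 0.10), and the groups overlapped. Il1rn, the antagonist of the interleukin-1 receptor, had 311, 379.7 and 290.0 TPM with Ctbp2 siRNA, 238, 203 and 199 TPM with Ctbp1 siRNA and 208, 212 and 195 TPM with control siRNA (0.61, SE 0.109, adjusted p = 0.0656). The groups lay apart without reaching the threshold. Ccl9, a chemokine that macrophages make without stimulation, averaged 1175 ± 63.2 TPM with Ctbp2 siRNA and 1016 ± 39.5 TPM with Ctbp1 siRNA (0.21, adjusted p = 0.0971). Ccl3, a chemokine for monocytes, averaged 119 ± 10.8 TPM with Ctbp2 siRNA and 141 ± 0.788 TPM with Ctbp1 siRNA (−0.25, adjusted p = 0.117), and the anti-inflammatory cytokine Tgfb1 averaged 348 ± 4.10 TPM with Ctbp2 siRNA and 371 ± 10.7 TPM with Ctbp1 siRNA (−0.09, 0.237). Cell cycle genes were uncalled too, with 27 tested and a median of −0.09, none of them higher and 8 lower without overlap. The 25 macrophage identity genes tested had a median of 0.06 with no call, 9 higher and 3 lower without overlap. Over all genes tested the shares without overlap were 7.25% higher and 15.8% lower.

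The same contrast in LPS, on 6 other libraries with the same siRNAs, showed part of the resting difference again. There 138 of 7341 genes were called (1.88%), 70 higher (0.954%) and 68 lower (0.926%), and 1704 at an unadjusted p under 0.05 (23.2%; 5.57% higher and 17.6% lower). Rescaled by median-of-ratios factors, LPS calls were split into 163 higher and 28 lower. Of the 36 genes called at rest 31 were tested in LPS, and 18 of these were called there too, each in the same direction. That is 58.1% of the 31 and 15.9% of the 113 LPS calls that were tested at rest. The sign was the same for 28 of 31, against 65.4% of the 6999 genes tested in both. The labels do not say whether vehicle and LPS libraries share mice or cultures, so this agreement is not shown to be independent. Besides the targets, the named genes called in both conditions were as follows. Pdia3, Slc25a5, Pld4, Cerk, Rab8b, Anapc15, Fxyd2 and 1110008P14Rik were higher in both, and Ptma, Calu, Hadhb, Hdlbp, Washc5, Wdr7 and Vegfb were lower in both. Pdia3 stood at 0.47 in LPS (adjusted p = 0.00326) and Ptma at −0.51 (0.00745). Ifitm3 was the one interferon response gene called in both (0.42 in LPS, adjusted p = 0.0482).

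**Figure D5:**
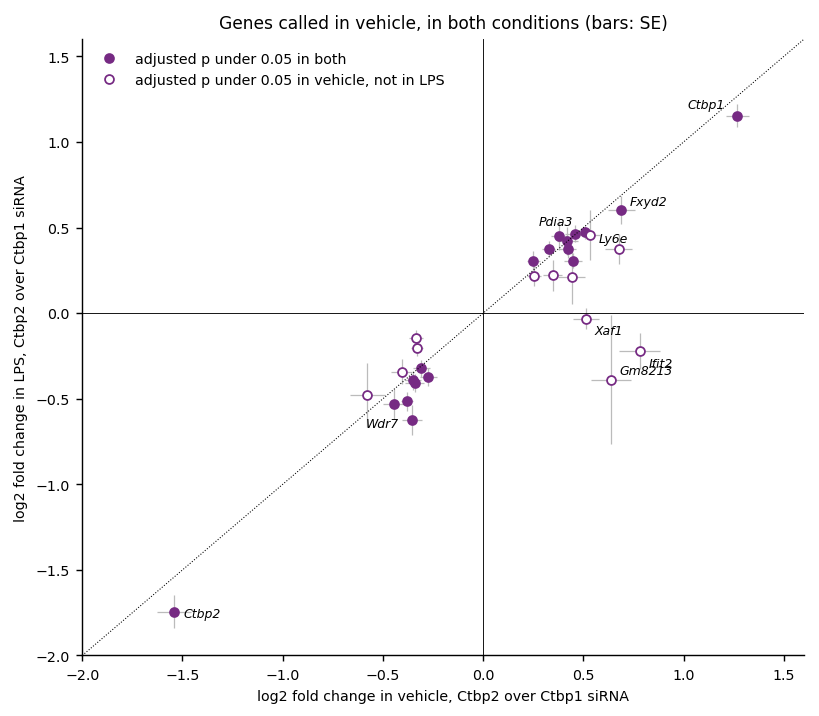
Log2 fold change of Ctbp2 over Ctbp1 siRNA in LPS (y axis) against that in vehicle (x axis) for genes called in vehicle and tested in LPS, without Gm14287. Bars are SE, filled points the 18 genes called in both, and the dotted line marks equal values. Ifit2, Xaf1 and Gm8213 lie below 0 in LPS.

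The interferon response list, shifted at rest, was centred near 0 in LPS. Ifit2 averaged 105 ± 9.41 TPM with Ctbp2 siRNA and 123 ± 17.2 TPM with Ctbp1 siRNA in LPS, a log2 fold change of −0.22 there against 0.78 at rest. Xaf1 averaged 114 ± 6.69 TPM with Ctbp2 siRNA and 116 ± 6.54 TPM with Ctbp1 siRNA in LPS (−0.03). Over the list the median was −0.01 in LPS, with 71 tested, 4 called higher and 1 lower, and 12 higher and 9 lower without overlap (6.27% and 22.6% of all genes tested there). The test of the difference itself, LPS minus vehicle over 12 libraries, called none of 7893 genes, with 941 at an unadjusted p under 0.05 (256 higher, 685 lower; 3.24% and 8.68%). In that test Ifit2 stood at −1.0 (unadjusted p = 4.07e-05, limma adjusted p = 0.0643) and Xaf1 at −0.54 (adjusted p = 0.0729). Of the 71 interferon response genes tested, 37 were lower and none higher at an unadjusted p under 0.05, with a median of −0.27 against −0.04 over all genes. Tnf went the other way: it averaged 5417 ± 159 TPM with Ctbp2 siRNA and 4054 ± 23.0 TPM with Ctbp1 siRNA in LPS (0.42, adjusted p = 0.00346), and its difference between LPS and vehicle was 0.46 (adjusted p = 0.0572). In LPS 5 of 12 tested cytokines, 3 of 16 chemokines and 7 of 24 NF-kB and feedback genes were called higher and none lower, where 0.954% and 0.926% of all genes tested in LPS were called. No member of these lists was called at rest, nor in the test of the difference. Leaving out 1 LPS library moved the LPS calls to 8, 43 and 36 without Ctbp2 siRNA replicates 1, 3 and 4, and to 45, 61 and 9 without Ctbp1 siRNA replicates 1, 3 and 4. The difference between conditions had 12 calls without Ctbp2 siRNA LPS replicate 4, 4 without Ctbp1 siRNA LPS replicate 1, 2 without Ctbp2 siRNA LPS replicate 3 and 1 each without vehicle replicates 3 and 4 of Ctbp2 siRNA or replicate 4 of Ctbp1 siRNA.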

How the data were processed

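The 6 libraries compared were made with an unstranded mRNA kit, so reads of overlapping and antisense genes cannot be separated. The authors deposited TPM per gene and library; per the file headers these are scaled TPM of genes, from Salmon on mm39. The authors' deposited table also gives log2 fold changes and adjusted p-values of each siRNA against control. Per the submitters' processing notes, FastQC, Salmon 1.9.0, DESeq2 1.44.0 and R 4.4.1 were used, and mm39, GRCm38 and GRCm39 are named. The table has 22996 genes.

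Here, genes averaging 10 TPM or more over the libraries of a fit were tested with limma 3.58.1 (R 4.3.3; a linear model per gene, then robust eBayes with a trend) on log2(TPM + 1). This scale understates changes of scarce genes. All tests are two-sided. Called means a Benjamini-Hochberg adjusted p under 0.05 over all genes of the fit. There were 3 comparisons: Ctbp2 over Ctbp1 siRNA in vehicle, in LPS, and their difference. The script was tested on simulated data. No count of reads is given, so no count test was run.

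Named genes were Ctbp1 and Ctbp2, the 12 largest called changes in each direction that averaged 20 TPM or more without overlap (predicted genes, clones and pseudogenes left out), up to 5 called members of each of the 22 pathway lists, up to 3 abundant members of 7 lists, and the type I interferon genes. Called genes outside this rule, and Oas3, Isg15, Ifit3, Irf7, Mx1, Ifi27, Pnpt1, Fcgr1 and Lyz2 were chosen after their values were seen. The comparison and the lists were chosen with earlier results of these data known, so the interferon pattern is not independent support. Values for 7 marker lists are given as sums or ranges. One member of the interferon response list is not reported here by name. The sequences are RefSeq promoters of GRCm38.p6.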

Additional observations from a re-analysis of the deposited data

How the results depend on the processing

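Of the 36 calls in vehicle, 12 held in every alternative in which the gene was tested, and no called gene changed sign. Counts of calls in vehicle (all, higher, lower, interferon response genes higher) were 36, 21, 15 and 5. They were 15, 8, 7 and 0 with no filter on low values, where 21203 genes were tested, and 59, 43, 16 and 9 after median-of-ratios scaling. Sharing the spread with more libraries gave 113, 57, 56 and 8 (9 vehicle libraries), 75, 41, 34 and 8 (18 BMDM libraries), 157, 79, 78 and 20 (17 BMDM libraries, without control siRNA LPS replicate 4) and 98, 55, 43 and 16 (12 siRNA libraries). With the replicate block they were 101, 74, 27 and 21, and with the replicate block and 18 libraries 160, 87, 73 and 13, although the numbers were not taken to pair the libraries. Same-numbered libraries of the siRNA groups deviated together at r = 0.01, 0.04 and 0.15 (replicates 1, 3 and 4), and replicates 3 and 4 correlated best with their own number while replicate 1 did not. Some list sums followed the number. In vehicle replicates 1, 3 and 4, cholesterol, LXR and fatty acid genes summed to 4009, 3289 and 4297 TPM with Ctbp2 siRNA. With Ctbp1 siRNA they summed to 3691, 3429 and 4105 TPM, and with control siRNA to 4134, 3520 and 4196 TPM. MHC class I sums also ranked replicate 3 lowest and 4 highest in each group, at 14105, 13579 and 14386 TPM with Ctbp2 siRNA. They were 13013, 12440 and 13353 TPM with Ctbp1 siRNA and 12318, 11971 and 12837 TPM with control siRNA. Interferon response sums were lowest in replicate 3 in each group, at 7619, 7503 and 8072.5 TPM with Ctbp2 siRNA. They were 6639, 6063 and 6565 TPM with Ctbp1 siRNA and 6370, 6124 and 6913 TPM with control siRNA. Cell cycle sums did not follow the number, at 2212, 2399 and 2247 TPM with Ctbp2 siRNA and 2432, 2382 and 2349 TPM with Ctbp1 siRNA. The main fit does not model the number, and what the number stands for was not tested. Without robust estimation or trend, 1 interferon response gene was called. Leaving out 1 library gave 17 to 32 calls, 9 to 21 higher, 6 to 11 lower and 0 to 4 interferon response genes. In LPS the 138 calls became 52 with a mean of at least 1 TPM, 708 with the replicate block, 538 with 18 libraries and 8 to 61 without 1 library. The difference between LPS and vehicle, with no call, had 9 with a pseudocount of 5 TPM, 1 with a mean of at least 1 TPM, 4 after median-of-ratios scaling, 13 with the replicate block and 0 to 12 without 1 library. Estimates near 0 changed sign when a library was left out. Ifi27l2a in vehicle ranged from −0.0370 (without Ctbp1 siRNA replicate 4) to 0.0604, and was −0.00327 without Ctbp2 siRNA replicate 1. Ncor1 ranged from −0.111 to 0.0887 (without Ctbp1 siRNA replicate 4), Tnf from −0.0780 to 0.0119 and Zeb2 from −0.00183 to 0.0551, where the sign changed without Ctbp2 siRNA replicate 4. Apart from the construction of the fits (other genes tested, fewer or more libraries), the cause of these shifts was not tested. Library depth is unknown, and with 3 libraries per siRNA a gene that was not called is not shown to be equal.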

Other observations

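Other cell programmes showed no call between Ctbp2 and Ctbp1 siRNA in resting cells. No member of the lists of MHC class II and co-stimulation (7 tested, median log2 fold change −0.06), mitochondrially encoded genes (13, 0.01), the integrated stress response (12, 0.01), heat shock (10, −0.04), NRF2 antioxidant genes (13, 0.01), cholesterol, LXR and fatty acid genes (17, 0.04) or glucocorticoid targets and metallothioneins (8, 0.04) passed the threshold in the limma test, in which 0.444% of all genes did. Among 22 glycolysis and hypoxia genes none was called either (median 0.02), while 7 lay higher and 2 lower without overlap, against 7.25% and 15.8% of all genes tested.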
